A study of Mus musculus with 15 samples.

Results

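Mir-210 is the microRNA (miRNA) most closely tied to low oxygen, and its 2 rows, 1 for each arm of the precursor, were taken from a table of 1836 miRNA rows of mouse left ventricular (LV) tissue by their name alone. The mir-210-5p row held 2198 reads over 15 libraries, and the mir-210-3p row was listed at 0 in each of them. MiRNA had been sequenced from 15 mice in 3 groups of 5, all with a C57BL/6J background, bred from heterozygous parents and described as littermates. The groups were wild type (wt) mice labelled as controls, mice without arginine:glycine amidinotransferase that were also labelled as controls (AGAT-/-), and AGAT-/- mice given homoarginine over 4 weeks from osmotic mini pumps (AGAT-/-hArg). AGAT forms homoarginine, and also guanidinoacetate, from which creatine is made. Both AGAT-deficient groups carried the same germline deficiency, which was not confined to the heart. Ages, and whether the control mice carried pumps, were not given in the sources used here. By their labels, lane 8 held each library of the control-labelled mice and lane 2 each library of the supplemented mice, and an effect of homoarginine and one of the lane cannot be told apart.

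MiR-210 is a transcriptional target of hypoxia-inducible factors, the proteins that accumulate when cells lack oxygen, and it rises in most cell types kept at low oxygen. Loaded into an Argonaute protein, it represses mRNAs that pair with its seed, the short stretch near its 5′ end. Its best known targets are the iron-sulfur cluster scaffold proteins ISCU, which mitochondrial respiration needs, so miR-210 is often described as a link from low oxygen to lower respiration. The strand usually loaded is the 3p arm, and the 5p arm is the passenger strand of the same hairpin.

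The sequences of both arms are shown because the name of the row with reads rests on which strand was counted. They come from RefSeq (GRCm38.p6), where the precursor lies on the minus strand at chr7:141221384-141221493, the 5p arm at chr7:141221445-141221466 and the 3p arm at chr7:141221407-141221428. Capitals mark both arms in the hairpin and the seed (bases 2 to 8) in each mature miRNA.
mir-210 hairpin: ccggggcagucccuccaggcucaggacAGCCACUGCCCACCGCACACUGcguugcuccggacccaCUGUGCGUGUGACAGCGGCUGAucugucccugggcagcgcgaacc
mir-210-5p: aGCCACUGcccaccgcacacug
mir-210-3p: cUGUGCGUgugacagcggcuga

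The arms are 22 bases long each and lie 16 bases apart in the 110-base hairpin, at bases 28 to 49 and 66 to 87. RNAfold placed 35 base pairs in the hairpin at a minimum free energy of -48 kcal/mol, 16 of them between the arms, and 6 seed bases of each arm were paired. The 5p arm is 68.2% G and C and the 3p arm 63.6%. The median of 1679 mature miRNAs in the same RefSeq table was 52.2%, and 7.92% of them had as high a share as the 5p arm or higher. None of the other 1677 mature sequences has the seed of either arm, so mir-210 stands without a seed family in this table. The longest run that the 5p arm shared with any of 1004 other hairpins was 10 bases, in Mir6936 on chromosome 11, and the capitals below mark it.
mir-210-5p, shared run: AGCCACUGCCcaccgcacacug
mir-6936-5p, shared run: gugAGCCACUGCCgugcccgc

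The run begins at base 1 of mir-210-5p and at base 4 of mir-6936-5p, so the seeds differ. Over the 15 libraries mir-6936-5p held 1 read and mir-6936-3p held 3, against 2198 for mir-210-5p. In the GENCODE M21 annotation the Mir210 gene overlaps no other gene. Its nearest neighbours are Rassf7, which ends 2726 bases away, and Phrf1, which starts 7291 bases away on its other side. Both are read from the plus strand, opposite to Mir210. The nearest other miRNA gene, Mir7063, lies 399208 bases away, so mir-210 does not belong to a miRNA cluster.

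The libraries held between 365634 and 570492 reads, of which the 3 most abundant rows took 71.5% to 74.8%. Levels are given as CPM, the reads scaled to a common library size by the trimmed mean of M values (TMM), and 3 reads correspond to 5.26 to 8.20 CPM. Of the miRNAs that mark heart muscle cells (mir-1, mir-133, mir-208 and mir-499), 9 of 18 rows had reads, but the defining 3p rows of mir-1a-1, mir-133a-1 and mir-208a were listed at 0. The liver miRNA mir-122 held 5 reads in all. Gatm, the gene of AGAT, is not measured by miRNA counts, so the genotype could not be checked.

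In wt LV, mir-210-5p stood at 274.8 CPM in mouse 1, 254.4 in mouse 2, 273 in mouse 3, 270.6 in mouse 4 and 269.9 in mouse 5. In AGAT-/- LV it stood at 338.1 CPM in mouse 6, 345.9 in mouse 7, 420.2 in mouse 8, 317 in mouse 9 and 367.3 in mouse 10. In AGAT-/-hArg LV it stood at 303.8 CPM in mouse 11, 365.3 in mouse 12, 328.7 in mouse 13, 353.2 in mouse 14 and 342.1 in mouse 15. Each of the 10 AGAT-deficient mice was above each of the 5 wt mice. Of the 647 rows tested over all 15 libraries this held for 5, mir-210-5p among them. The supplemented and unsupplemented AGAT-/- mice overlapped.

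**Figure D1:**
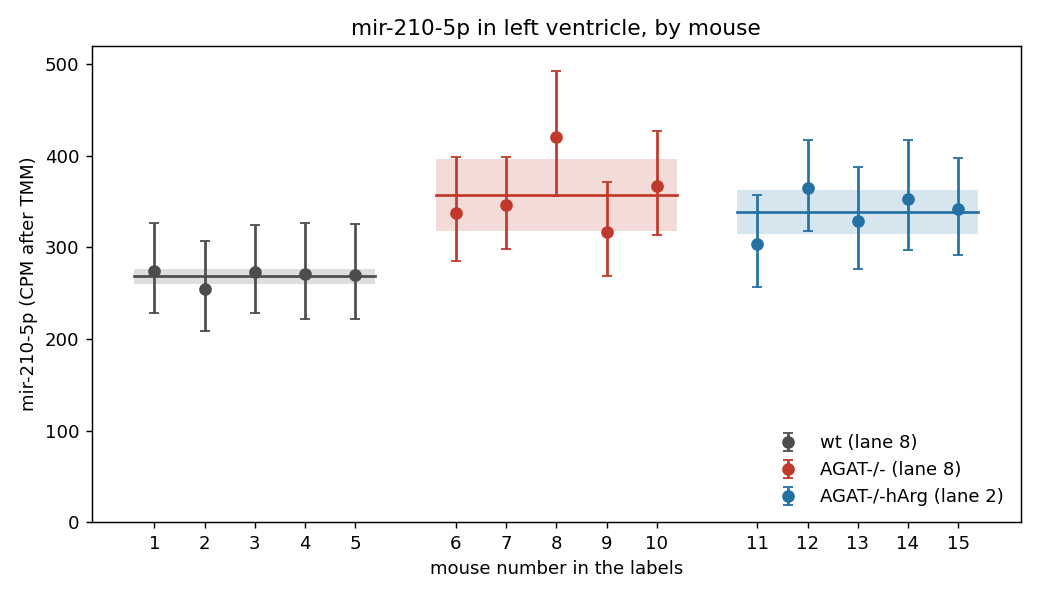
The level of mir-210-5p (CPM after TMM scaling, y axis) in the LV of each mouse (x axis), with the 95% Poisson interval of its own read count as the error bar. Lines and bands are the mean and SD of each group of 5, and the wt mice (254.4 to 274.8 CPM) lie below the lowest AGAT-deficient mouse (303.8 CPM).

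The counts behind these levels were small. Mir-210-5p had a median of 110 and at most 130 reads per wt library (583 in all), a median of 151 and at most 190 per AGAT-/- library (803), and a median of 147 and at most 219 per AGAT-/-hArg library (812). This was 0.0261% of all reads in wt LV, 0.0351% in AGAT-/- LV and 0.0353% in AGAT-/-hArg LV. The 95% Poisson interval of a single library was wide, from 209.1 to 306.6 CPM for wt mouse 2 and from 355.9 to 492.8 CPM for AGAT-/- mouse 8. These intervals cover counting error only. Some intervals of single mice in different groups overlapped although their point values did not.

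The wt mice were closer together than their counts would lead one to predict. Their mean was 268.5 ± 8.14 CPM (SD, n = 5), a coefficient of variation of 3.03%, whereas counting error alone would give 9.26%. AGAT-/- mice had a mean of 357.7 ± 39.3 CPM (SD, n = 5), and their coefficient of variation of 11% compares with 7.89% from counting. AGAT-/-hArg mice had a mean of 338.6 ± 23.7 CPM (SD, n = 5), with 7% against 7.85%. The order of the means was therefore wt, AGAT-/-hArg and AGAT-/-, and the upper pair did not differ beyond the spread between mice.

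Of the 1164 rows with reads, 78 had more than mir-210-5p. By level within a library it ranked 84 to 88 in wt mice, 74 to 81 in AGAT-/- mice and 75 to 81 in AGAT-/-hArg mice, out of 625 to 746 rows with reads. Over all 15 libraries its mean of 321.6 CPM lay between those of mir-3057-5p (333.4) and mir-488-3p (318.4). Both differences were smaller than the SDs of these rows, which were 46.9 CPM for mir-210-5p, 88.2 for mir-3057-5p and 73.5 for mir-488-3p.

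Mir-210-3p was listed at 0 in every mouse. The 0 is a property of the table used here, is not read as a level of the arm, and no upper limit is drawn from it. Many precursors of the table had reads on 1 row alone. Of the 918 precursors, 357 had reads on both rows. Mir-210 was among 33 precursors with at least 2198 reads on 1 row and none on the other, and 13 of these, mir-210 among them, had their reads on the 5p row. By contrast, 38 precursors with as many reads on 1 row had reads on both. The rows at 0 include arms that are abundant in heart muscle, such as mir-1a-1-3p. The table holds no read sequences, so the strand behind the mir-210-5p counts is known by the row name alone, and a row at 0 does not show that the arm was absent from the tissue. With DESeq2, the authors' paper reports both mir-210 arms as significantly higher in AGAT-/- than in wt hearts. Reads of the 3p arm were thus counted in their work. Their paper also lists a quantitative PCR assay for the 3p arm, but does not name miR-210 among the miRNAs that this assay bore out. Shares of reads and ranks refer to the rows of this table.

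**Figure D2:**
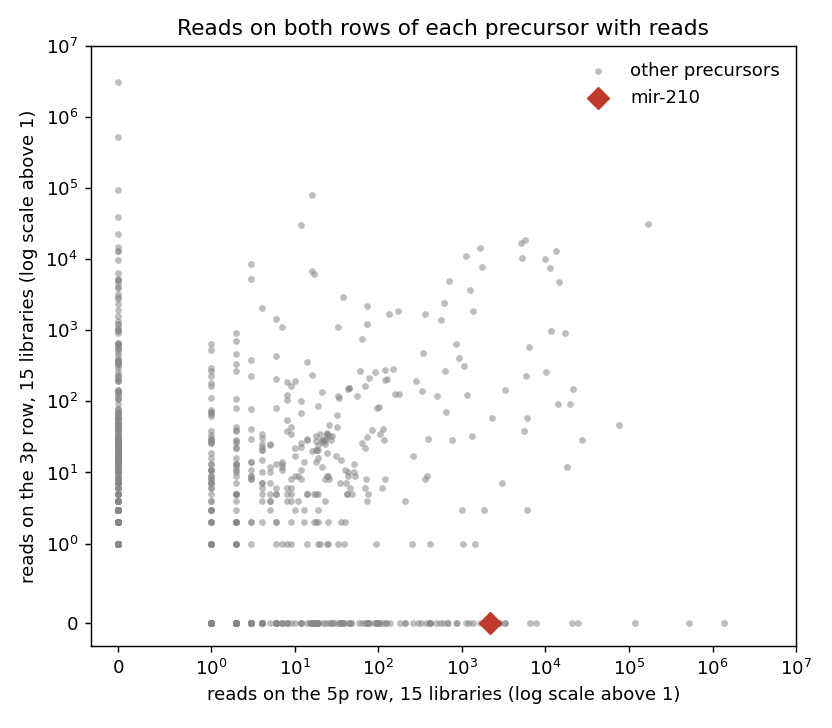
Reads on the 5p row (x axis) and the 3p row (y axis) of each precursor with reads, summed over 15 libraries, on log axes that are linear below 1. Mir-210 (diamond) lies on the x axis, with 2198 reads on its 5p row and 0 on its 3p row, as do the other precursors with reads on the 5p row alone.

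The comparison of AGAT-/- with wt mice asks whether loss of the enzyme goes with another miRNA pattern in the heart. The mean of mir-210-5p was 357.7 CPM in AGAT-/- against 268.5 CPM in wt LV. In edgeR's quasi-likelihood test this was a log2 fold change of 0.39 with an SE of 0.110 and a 95% interval of 0.16 to 0.62, or 1.31-fold (1.12 to 1.54). The false discovery rate (FDR) over all 562 rows tested was 0.0765, which did not pass the limit of 0.05. Its unadjusted edgeR p was 0.00218, the 16th lowest of 562. In this comparison 2.14% of all rows tested passed the FDR, and in 2.67% each AGAT-/- mouse was above each wt mouse, as was the case for mir-210-5p.

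Taken by itself, without the fit over all rows, mir-210-5p was 0.40 higher in AGAT-/- LV on the log2 CPM scale. The exact two-sided permutation test, which enumerates each possible split of these 10 mice into 5 and 5, gave p = 0.00794, the smallest it can give, and 0.0119 after Benjamini-Hochberg adjustment over the 3 pairs of groups. The edgeR call changed with the processing. In 5 of 10 other ways of fitting the FDR was past the limit, with a range of 0.0209 to 0.432, while the log2 fold change lay between 0.35 and 0.44. Leaving out AGAT-/- mouse 6 (FDR 0.0362) or AGAT-/- mouse 9 (FDR 0.0416) also brought it past the limit.

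The comparison of AGAT-/-hArg with AGAT-/- mice asks whether homoarginine alters what the knockout shows. The supplemented mice had a mean of 338.6 CPM and the unsupplemented mice 357.7 CPM. The log2 fold change was -0.07 (SE 0.110, 95% interval -0.30 to 0.15), or 0.949-fold with an interval of 0.810 to 1.11. With edgeR the FDR was 0.949 over 580 rows, and the exact permutation test gave p = 0.405. Among all rows tested 0.690% passed the FDR, and in 0.862% each supplemented mouse was above each unsupplemented one. For mir-210-5p the values of the groups overlapped, with 303.8 to 365.3 CPM in the former and 317 to 420.2 CPM in the latter. A decrease to 0.810-fold and a rise to 1.11-fold are both within the interval, so the groups are not shown to be alike.

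The supplemented mice were also set against wt. The means of mir-210-5p were 338.6 and 268.5 CPM, a log2 fold change of 0.32 (SE 0.110, 95% interval 0.09 to 0.55), or 1.25-fold. The FDR in edgeR was 0.161 over 569 rows, and mir-210-5p had the 30th lowest p (0.0085). In this comparison 2.99% of all rows passed, and in 1.23% each AGAT-/-hArg mouse was above each wt mouse, mir-210-5p among them. The exact permutation test gave p = 0.00794, or 0.0119 adjusted over the 3 pairs, for a difference of 0.33 in log2 CPM. In 4 of 10 other ways of fitting the FDR passed the limit. This comparison crosses lanes and shares its wt mice with that of the AGAT-/- mice, so the values are given side by side and are not independent of each other.

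With both AGAT-deficient groups (10 mice) set against the 5 wt mice in 1 fit of 15 libraries, mir-210-5p rose. Part of this contrast crosses lanes, because the supplemented libraries were in lane 2 and the wt libraries in lane 8. The log2 fold change was 0.36 (SE 0.0968, 95% interval 0.17 to 0.56), or 1.29-fold (1.12 to 1.48), at an edgeR FDR of 0.0299 over 647 rows, where 3.09% of rows passed. The call was lost in the fit that kept all rows with at least 1 read (FDR 0.0682) and with the animal number as a covariate (FDR 0.219). It was also lost when wt mouse 1, 2, 3, 4 or 5 or AGAT-/- mouse 10 was left out, where the FDR was 0.0503 to 0.0937. In each of these fits the log2 fold change stayed between 0.32 and 0.38.

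**Figure D3:**
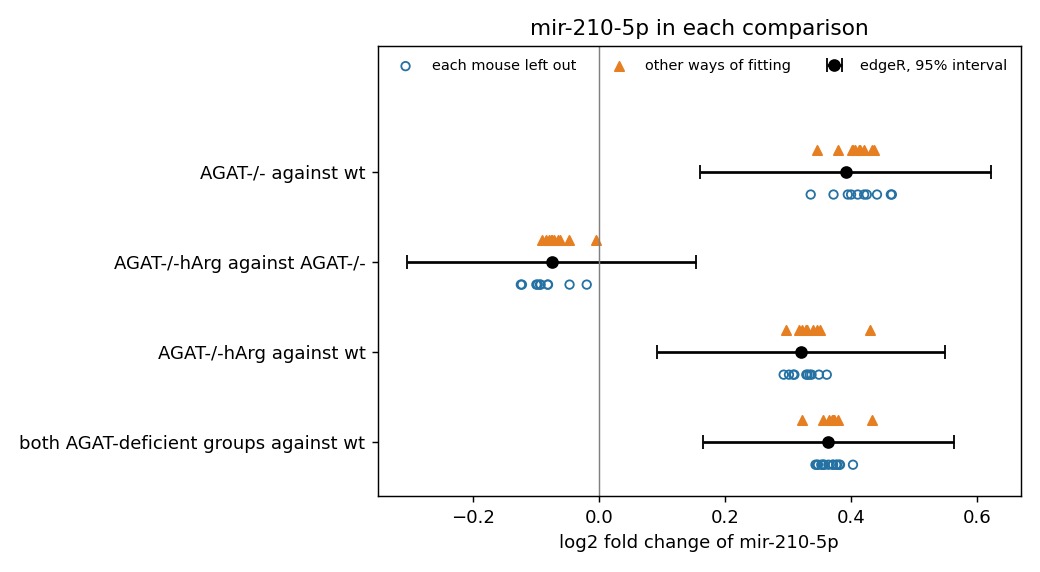
The log2 fold change of mir-210-5p (x axis) in each comparison (y axis), as the edgeR estimate with its 95% interval (black), other ways of fitting (triangles) and fits without each mouse in turn (open circles). Estimates against wt lie above 0 in each fit, and the interval of AGAT-/-hArg against AGAT-/- (-0.30 to 0.15) spans 0.

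The labels also carry an animal number, which in AGAT-/- mice was mostly higher than in wt mice. With that number as a covariate, the log2 fold change of mir-210-5p in AGAT-/- against wt LV was 0.35 with an SE of 0.151 (unadjusted p 0.0354, FDR 0.432, edgeR), against an SE of 0.110 without it. The part of the animal number in the difference was not tested further.

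Scaling by total counts raised the median log2 fold change of all rows in AGAT-/-hArg against wt mice by 0.108, and that of mir-210-5p from 0.32 to 0.43. Relative to the median of all rows, mir-210-5p stood 0.31 higher with either scaling. In AGAT-/- against wt mice it stood 0.43 above the median of all rows with total counts and 0.44 with TMM.

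In bulk LV tissue, fewer cells of a type and less RNA per cell cannot be told apart, so miRNAs of the cell types that the tissue holds were read beside mir-210-5p. The summed level of the heart muscle rows was 1795 to 2088 CPM in wt, 1905 to 2620 in AGAT-/- and 2012 to 2448 in AGAT-/-hArg mice. Rows of red blood cells (mir-144, mir-451 and mir-486) summed to 6518 to 7921, 6723 to 8184 and 6592 to 7879 CPM in the same order, with 5 of 10 rows at 0, all 4 mir-451 rows among them. Leukocyte rows summed to 2554 to 3202, 2606 to 3119 and 2835 to 3556 CPM, with 6 of 10 rows having reads. Of their 20455 reads mir-155-5p alone held 19824, and mir-223-3p, mir-142a-5p and mir-150-5p were at 0. Smooth muscle and fibroblast rows, 4 of 6 with reads, summed to 9571 to 11960, 9953 to 13917 and 10117 to 16970 CPM. Here mir-145a-3p alone held 79253 of 80244 reads, so both sums mostly follow a single row. The 4 endothelial mir-126 rows, all with few reads, summed to 12.6 to 29.4, 8.4 to 28.6 and 12.4 to 25.2 CPM. In each of these lists the sums of wt mice overlapped those of both AGAT-deficient groups, whereas for mir-210-5p the wt mice lay below both. Within the heart muscle list, mir-499-5p held 6290 of 14832 reads, and there too the wt mice lay below both. It stood at 699.2 to 860.3 CPM in wt, 871.5 to 1140 in AGAT-/- and 919.8 to 1145 in AGAT-/-hArg mice. The part of these cell types in the result was not tested.

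Among rows with reads, other miRNAs that are linked to low oxygen did not show a common direction. The hypoxia list held 60 rows of the table, of miRNAs generally linked to hypoxia or to its regulators, and 32 of them were at 0 in each library. For many of these miRNAs a single arm had reads, and a row at 0 gives no direction. The list set no direction for its members beforehand, so their signs do not test for low oxygen. In AGAT-/- against wt mice none of 22 rows tested passed the edgeR FDR and 3 had an unadjusted p under 0.05, beside 60 of all 562 rows. DESeq2 and limma-voom called 1 row of the list each, out of 14 and 15 rows called in all. Of the 22 rows, 12 had a positive and 10 a negative log2 fold change, with a median of 0.02 against -0.04 over all rows. In AGAT-/-hArg against AGAT-/- mice none of 21 rows passed, and 1 had an unadjusted p under 0.05, beside 43 of all 580 rows. Neither DESeq2 nor limma-voom called any row of the list, out of 5 rows called in all by each. In AGAT-/-hArg against wt mice 1 of 22 rows passed, beside 2.99% of all rows, and the median was 0.08 against 0.02 over all rows. Here 7 rows of the list had an unadjusted edgeR p under 0.05, beside 71 of all 569 rows. DESeq2 called 2 rows of the list and limma-voom 1, out of 22 and 18 rows called in all.

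The row that passed was mir-125b-2-3p, of the vertebrate family of the worm miRNA lin-4. It rose from 11960 ± 1180 CPM in wt to 14510 ± 763 CPM in AGAT-/-hArg LV (SD, n = 5 each), by 0.27 on the log2 scale (FDR 0.0422, edgeR). No row of the list passed when wt mouse 1, 2, 3 or 5 or AGAT-/-hArg mouse 11, 12, 14 or 15 was left out. In AGAT-/- LV mir-125b-2-3p stood at 14670 ± 403 CPM, 0.28 above wt with an edgeR FDR of 0.0523.

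Among the regulators of hypoxia-inducible factors, mir-322-5p, the mouse counterpart of human miR-424, was the most abundant row, with 26140 ± 2975 CPM in wt, 23990 ± 1205 in AGAT-/- and 24770 ± 1807 in AGAT-/-hArg LV. Its log2 fold changes against wt were -0.14 and -0.09, with edgeR FDRs of 0.534 and 0.741. Mir-107-5p, from a precursor whose other arm is known to act on a partner of these factors, had 182 reads in all and log2 fold changes of -0.36 and -0.72 (FDR 0.849 and 0.355, edgeR). Neither row passed, and both estimates were on the other side of 0 from that of mir-210-5p.

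Of the miRNAs known from injured or inflamed tissue, mir-21a-3p, whose precursor is induced in cardiac fibroblasts under stress, stood at 602.7 ± 23.2 CPM in wt, 507.1 ± 128 in AGAT-/- and 512 ± 66.4 in AGAT-/-hArg LV. The edgeR FDRs of its log2 fold changes against wt, -0.26 and -0.25, were 0.571 and 0.315. The other arm, mir-21a-5p, held 1242 reads in all and had larger negative log2 fold changes, -0.33 and -0.43 (FDR 0.311 and 0.0781, edgeR). Mir-155-5p, a miRNA of immune cells, had means of 2823 CPM in wt, 2805 in AGAT-/- and 3102 in AGAT-/-hArg LV, and the lowest SD of the 3 groups was 233 CPM. The log2 fold changes of mir-181c-3p, from a family known in T cells and vessels, were 0.04 in AGAT-/- and -0.13 in AGAT-/-hArg against wt LV (FDR 0.969 and 0.62, edgeR). The other mir-181 rows tested held only 25 to 74 reads each in all, and their estimates against wt were positive in both comparisons. None of these rows passed the FDR.

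The remaining abundant rows lay on both sides of 0. Mir-24-2-5p, of a precursor that is clustered with mir-23 and mir-27, stood at 15220 ± 1823 CPM in wt, 18270 ± 877 in AGAT-/- and 17840 ± 2109 in AGAT-/-hArg LV (FDR 0.143 and 0.263 against wt, edgeR). Mir-30b-3p had log2 fold changes of 0.24 and 0.25 (FDR 0.534 and 0.49, edgeR), and mir-195a-5p, of a family that acts on the cell cycle, had -0.23 in both (FDR 0.562 and 0.54, edgeR). For mir-26a-2-3p they were 0.01 and 0.22, and for mir-20a-3p, of the mir-17 cluster, 0.13 and 0.27, neither passing. The mir-106a-5p, mir-23b-5p and mir-27a-5p rows held 22, 18 and 18 reads in all and mir-103-1-5p held 3, so changes of these rows were not detectable at this depth. Rows of mir-93, mir-192, mir-199a and mir-494 were all at 0.

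**Figure D4:**
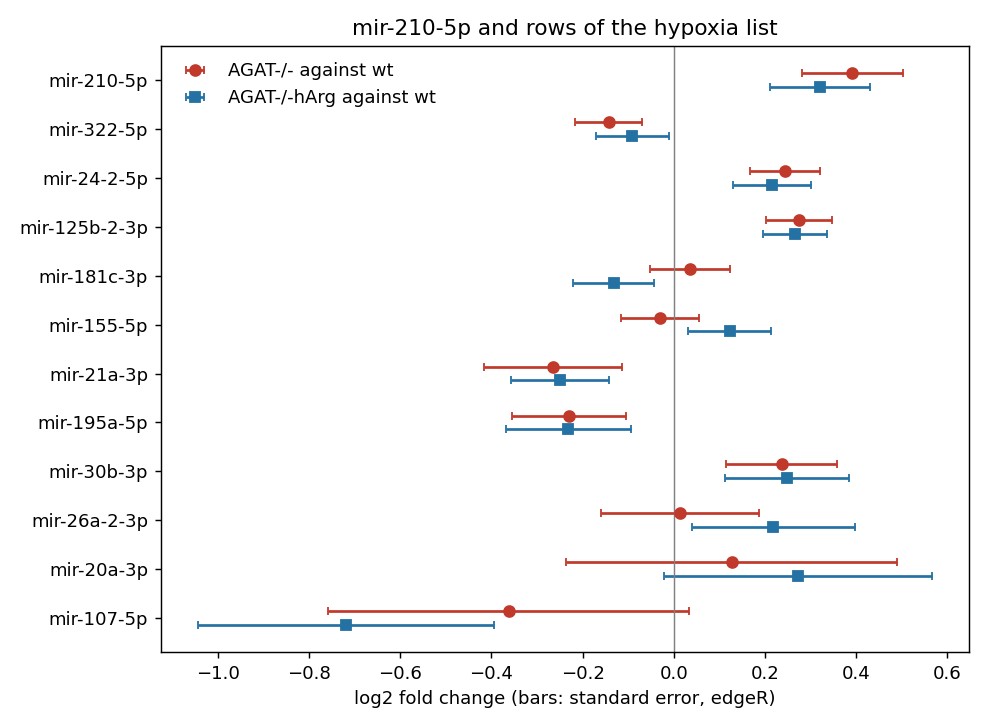
The log2 fold change against wt (x axis, bars are the SE from edgeR) of mir-210-5p and of the most abundant row of each precursor number in the hypoxia list, for rows with at least 100 reads in all. Points of the list lie on both sides of 0, and mir-210-5p has the highest estimate against wt among the rows drawn, at 0.39 in AGAT-/- and 0.32 in AGAT-/-hArg LV.

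Over the 15 libraries, 176 other rows with more than 10 reads in each library were ranked by how closely they followed mir-210-5p from mouse to mouse. The measure was the root mean square of the differences between their log2 CPM, each centred on its own mean, with a median of 0.304 over the 176 rows. The closest were mir-125b-2-3p (0.120), mir-24-2-5p (0.150), mir-499-5p (0.158), mir-872-5p (0.162) and mir-31-5p (0.168), and the sixth was at 0.183. Mir-125b-2-3p and mir-24-2-5p are also rows of the hypoxia list. Mir-210-5p itself departed from its mean by 0.201, so a row that hardly varies also comes out as close. Their mature sequences from RefSeq, with seeds in capitals, show that the 5 rows and both arms of mir-210 have 7 different seeds.
mir-125b-2-3p: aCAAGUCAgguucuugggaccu
mir-24-2-5p: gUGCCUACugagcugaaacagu
mir-499-5p: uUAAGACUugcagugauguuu
mir-872-5p: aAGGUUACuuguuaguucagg
mir-31-5p: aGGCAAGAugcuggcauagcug

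Their genes lie on chromosomes 16, 8, 2, 4 and 4 in this order, and none on the chromosome of mir-210. Mir-31-5p had the largest differences of the 5 and rose in both comparisons with wt. Its level was 1151 ± 108 CPM in wt, 1732 ± 230 in AGAT-/- and 1597 ± 149 in AGAT-/-hArg LV, with log2 fold changes of 0.57 (FDR 0.00171, edgeR) and 0.46 (FDR 0.00764, edgeR). Mir-499-5p, which is encoded in a myosin gene of heart muscle, stood at 748.4 ± 67.2, 978.2 ± 115 and 1017 ± 87.1 CPM. It rose in AGAT-/-hArg against wt LV, by 0.43 on the log2 scale (FDR 0.0129, edgeR), and in AGAT-/- LV its log2 fold change of 0.36 had an edgeR FDR of 0.0647. Mir-872-5p was the flattest, at 1574 ± 42.3, 1695 ± 34.7 and 1723 ± 115 CPM, with log2 fold changes of 0.09 and 0.12 (FDR 0.782 and 0.657, edgeR). The rows were picked by likeness in the same libraries, so these values describe them and do not test the likeness.

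**Figure D5:**
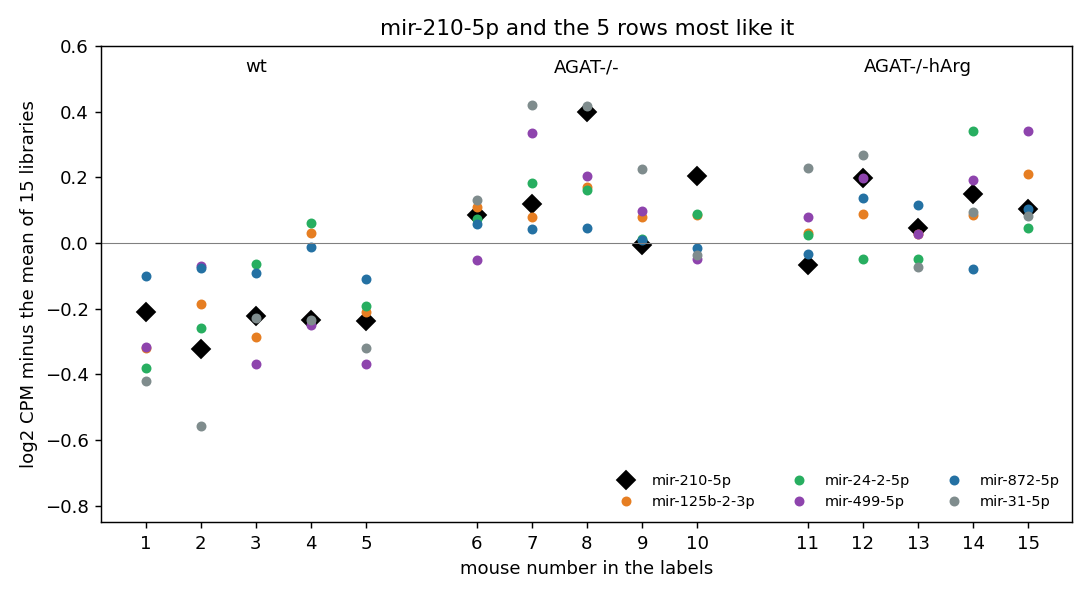
Log2 CPM minus the mean of the row over 15 libraries (y axis) in each mouse (x axis), for mir-210-5p (black diamonds) and the 5 rows most like it (circles). Mir-210-5p is below its mean in each wt mouse and above it in 8 of 10 AGAT-deficient mice, mir-31-5p spreads furthest and mir-872-5p least.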

How the data were processed

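MiRNA libraries of LV tissue from 15 mice (TruSeq Small RNA kit, 1 library per mouse) were used as deposited. The authors mapped reads with the CLC Genomics Workbench to murine miRNAs of miRBase. The deposited values are raw counts, whole numbers of reads per mature miRNA row, with no normalization. The miRBase release, the mismatches allowed and the treatment of reads matching several miRNAs are not given in the sources used here. The submitters' processing notes name GRCm38. Groups were taken from the labels.

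Pairs of groups were tested with edgeR 4.0.16 (R 4.3.3; TMM, glmQLFit, glmQLFTest) over rows whose reads in a fit totalled more than 10, at a Benjamini-Hochberg FDR of at most 0.05. The pooled contrast used all 15 libraries. Log2 CPM used a prior count of 1. Exact two-sided permutation tests enumerated all splits. The fits were tested on simulated data. Alternatives were DESeq2 1.42.0, limma-voom (limma 3.58.1), other scalings and filters, 1 fit of all libraries, the animal number as covariate and leaving out each mouse. Hairpins were folded with RNAfold 2.7.2. Summaries used Python 3.11.15.

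Totals of 365634 to 570492 reads put at most 219 reads on mir-210-5p, so its counting error per library was 7.85% to 9.26%, as a mean per group. Named miRNAs were both mir-210 rows, the 5 rows most like mir-210-5p, its neighbours in level, rows sharing a seed, and, of a hypoxia list, rows past the FDR and the most abundant row of each number. Further rows of mir-21 and mir-181 from that list were also named. The members and lists were chosen with earlier results of these data known.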

Additional observations from a re-analysis of the deposited data

Results flagged for a closer look

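In 4 of the 45 groups of 5 mice examined (15 rows in 3 groups), 1 mouse stood apart, judged by its gap to the nearest mouse as a share of the range of its group in log2 CPM. Chance gives about 1 in 20 groups. For mir-210-5p in wt LV the share was 0.766, where mouse 2 had the lowest level, 254.4 CPM, and the others 269.9 to 274.8 CPM. The Poisson interval of mouse 2, 209.1 to 306.6 CPM, holds the other 4 values. For mir-24-2-5p in AGAT-/-hArg LV it was 0.753, with mouse 14 at 21500 CPM and the others at 16410 to 17540 CPM. For mir-3057-5p in AGAT-/- LV it was 0.729, with mouse 7 at 447.8 CPM and the others at 295 to 330.3 CPM. For mir-322-5p in AGAT-/- LV it was 0.765, with mouse 6 at 21900 CPM and the others at 24140 to 24880 CPM.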

How the results depend on the processing

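The direction of mir-210-5p was kept in each comparison under each alternative run. In AGAT-/- against wt mice (0.39, FDR 0.0765) it passed the FDR with DESeq2 (0.41, FDR 0.0315), total counts (0.44, FDR 0.0425), more than 10 reads in every library (0.40, FDR 0.0231), filterByExpr (0.40, FDR 0.0209) and all 15 libraries in 1 fit (0.41, FDR 0.0438), and without 1 mouse the log2 fold change was 0.34 to 0.46 (FDR 0.0362 to 0.234). In AGAT-/-hArg against wt mice (0.32, FDR 0.161) it passed with DESeq2 (0.33, FDR 0.0485), total counts (0.43, FDR 0.0348), more than 10 reads in every library (0.35, FDR 0.0359) and filterByExpr (0.34, FDR 0.0346), and without 1 mouse it was 0.29 to 0.36, past the FDR in no such fit. In AGAT-/-hArg against AGAT-/- mice no fit passed, with -0.09 to -0.01 over the alternatives and -0.12 to -0.02 without 1 mouse. With both AGAT-deficient groups against wt the call was lost with rows of at least 1 read (0.37, FDR 0.0682) and the animal number (0.32, FDR 0.219), and without 1 mouse the value was 0.34 to 0.40, past the FDR in 9 of 15 fits. The fits with stricter filters tested fewer rows, and the cause of the other changes was not tested. Where groups do not overlap the exact permutation p is at or near its smallest possible value and shows nothing of stability. The differences behind it without 1 mouse were 0.35 to 0.45 (AGAT-/- against wt) and 0.30 to 0.37 (AGAT-/-hArg against wt).

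The count of all rows past the FDR in AGAT-/-hArg against AGAT-/- mice was 4, or 8 with rows of at least 1 read and 2 with more than 10 reads in every library. In AGAT-/-hArg against wt mice it was 17, or 28 with rows of at least 1 read, 10 with the animal number, and 10 to 20 without 1 mouse. Rows of the hypoxia list past the FDR numbered 0 to 2 in AGAT-/- and in AGAT-/-hArg against wt mice over the alternatives. No paired analysis was possible because the groups share no mouse numbers. With at most 219 reads per library and 5 against 5 mice, the 95% interval for homoarginine was 0.810- to 1.11-fold. A decrease or a rise within it is not excluded.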
